A study of Mus musculus with 4 samples.

Results

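The regions described here are the accessible regions that lie inside protein-coding genes whose body exceeds 500 kb. They were taken from the joint list of 64525 accessible regions by position alone: a region on chromosomes 1 to 19, inside such a gene and more than 1 kb from either end of any protein-coding gene. There were 2926 such regions, 4.62% of the 63301 on these chromosomes (95% exact binomial interval 4.46 to 4.79%), and they lay in 216 genes. The rule used no measured level. All 216 genes held at least 1 member, and 65 further regions that overlap a long gene were left out because they come within 1 kb of a gene end.

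The study profiled open chromatin by ATAC-seq, in which a transposase inserts adapters into DNA that is not wrapped in nucleosomes, in naive CD4+ T cells, the helper lineage before any contact with antigen, from spleen and pLN (the labels' own abbreviation). It has 2 libraries labelled WT and 2 labelled DDX55 KO, the knockout of a DEAD-box RNA helicase of large ribosomal subunit assembly. The labels state no age, allele or Cre driver, and do not say whether replicates are separate animals. The list joins all 4 libraries and holds positions only, so no region can be assigned to a genotype and depth is unknown. No spread between libraries exists, and none of the differences below was tested. Poisson, binomial and conditional intervals cover counting error only. Order-statistic intervals of medians describe the spread over genes, which are not replicates. Neighbouring regions and overlapping genes are not independent. In the check of the cell type, all 10 T cell marker genes, among them Cd3e, Cd4 and Ccr7, had a region within 1 kb of a gene end, against 0 of 6 B cell markers (such as Cd79a and Cd79b), 3 of 6 myeloid markers (Cd14, Csf1r and Itgam), 2 of 6 markers of CD8 T and natural killer cells (Cd8b1 and Prf1) and 1 of 5 neuron markers on these chromosomes (Map2). Over all 20665 protein-coding genes of chromosomes 1 to 19 the share was 54.1%, so the myeloid count is near the background.

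Genes of this length are almost entirely intron, and introns can carry enhancers, the distal elements that bind transcription factors and act on a promoter at a distance. Most of the longest mammalian genes encode adhesion molecules, channels and receptors of neurons and are little used by lymphocytes. A smaller group encodes regulators and signalling proteins of immune cells or proteins that most cells make. Long genes listed as immune-expressed and as neuronal were therefore compared by regions per 100 kb. The lists rest on general knowledge of expression, which was not measured in these files. They were chosen with earlier results of these data known, so the comparison is not independent of these data.

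Start sites inside long genes were examined because a long gene can be read from an internal promoter as a shorter transcript. A RefSeq table (GRCm38.p6, the assembly named mm10) gave start windows, from 250 bases before to 50 after a start, for 169 of the 216 long genes. A region overlapped a start window in 36 of these 169 genes (21.3%), against 50.6% of all 16457 protein-coding genes of chromosomes 1 to 19 with a start in the table. By list, the counts were 11 of 13 immune-expressed genes, 7 of 13 widely expressed genes and 10 of 86 neuronal genes. Of the members, 9 regions in 8 genes overlapped a start window of their own gene away from its end. Those 9 regions had a median width of 510 bp, against 228 bp for members over no start window.

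The windows of 3 immune-expressed genes and of Fhit are shown because a region overlapped an internal start window in each. Each sequence reads 5′ to 3′ on the gene's strand, and capitals mark the bases inside a listed region; the second Celf2 window is one with no region. The sequences are those of RefSeq, GRCm38.p6.
Celf2, internal start 675 kb from the 5′ end (chr2:6721613-6721912, minus strand): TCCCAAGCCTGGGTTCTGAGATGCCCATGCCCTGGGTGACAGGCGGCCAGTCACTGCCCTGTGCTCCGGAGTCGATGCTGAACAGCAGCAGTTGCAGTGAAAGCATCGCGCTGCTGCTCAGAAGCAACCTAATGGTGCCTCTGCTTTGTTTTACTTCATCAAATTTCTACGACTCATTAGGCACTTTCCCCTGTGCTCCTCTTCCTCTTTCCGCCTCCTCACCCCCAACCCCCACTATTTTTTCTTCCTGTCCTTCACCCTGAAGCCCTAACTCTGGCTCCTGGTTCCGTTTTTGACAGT
Celf2, internal start 524 kb from the 5′ end (chr2:6871986-6872285, minus strand): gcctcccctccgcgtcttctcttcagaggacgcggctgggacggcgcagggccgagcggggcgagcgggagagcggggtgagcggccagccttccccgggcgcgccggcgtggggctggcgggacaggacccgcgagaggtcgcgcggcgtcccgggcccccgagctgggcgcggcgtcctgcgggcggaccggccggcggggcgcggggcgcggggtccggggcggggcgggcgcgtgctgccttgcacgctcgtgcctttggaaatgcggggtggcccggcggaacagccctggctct
Foxp1, internal start 256 kb from the 5′ end (chr6:99266466-99266765, minus strand): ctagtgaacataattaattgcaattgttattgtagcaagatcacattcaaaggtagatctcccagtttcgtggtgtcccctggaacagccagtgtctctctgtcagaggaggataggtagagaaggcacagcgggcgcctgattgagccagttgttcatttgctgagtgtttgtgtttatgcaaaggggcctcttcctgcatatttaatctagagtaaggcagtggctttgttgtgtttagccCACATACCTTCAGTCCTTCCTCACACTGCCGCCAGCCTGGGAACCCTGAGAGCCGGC
Foxp1, internal start 494 kb from the 5′ end (chr6:99028249-99028548, minus strand): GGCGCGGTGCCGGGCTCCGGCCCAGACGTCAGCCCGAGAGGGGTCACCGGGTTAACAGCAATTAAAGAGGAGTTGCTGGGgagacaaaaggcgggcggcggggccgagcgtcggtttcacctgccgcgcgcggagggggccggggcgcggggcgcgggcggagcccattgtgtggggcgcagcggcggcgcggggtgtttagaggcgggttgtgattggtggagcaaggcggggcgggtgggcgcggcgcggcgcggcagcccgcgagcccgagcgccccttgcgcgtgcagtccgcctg
Pde4b, internal start 483 kb from the 5′ end (chr4:102569810-102570109, plus strand): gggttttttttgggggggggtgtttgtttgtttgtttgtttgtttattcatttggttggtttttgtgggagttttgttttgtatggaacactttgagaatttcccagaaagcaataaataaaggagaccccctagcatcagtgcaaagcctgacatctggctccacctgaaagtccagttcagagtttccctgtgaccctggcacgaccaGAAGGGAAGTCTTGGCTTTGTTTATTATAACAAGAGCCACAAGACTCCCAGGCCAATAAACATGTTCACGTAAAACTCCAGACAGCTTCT
Fhit, internal start 709 kb from the 5′ end (chr14:10453409-10453708, minus strand): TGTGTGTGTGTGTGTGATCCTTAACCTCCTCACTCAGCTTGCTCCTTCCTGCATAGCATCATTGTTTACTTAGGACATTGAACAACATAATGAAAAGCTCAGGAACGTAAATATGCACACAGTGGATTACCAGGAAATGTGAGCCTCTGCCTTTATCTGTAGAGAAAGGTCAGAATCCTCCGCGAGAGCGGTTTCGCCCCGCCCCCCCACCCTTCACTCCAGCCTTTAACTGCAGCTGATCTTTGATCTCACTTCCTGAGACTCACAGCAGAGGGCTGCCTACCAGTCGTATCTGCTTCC

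Celf2, which encodes an RNA-binding regulator of splicing, differed between its starts. Of its 5 annotated start windows only the one nearest the 3′ end was accessible: a region of 1526 bp (chromosome 2, 6720691 to 6722216) covered all 300 bases of it. The pair of windows at the 5′ end and the windows 315 and 524 kb into the gene held no region. Here and below, a closed window is one that no listed region overlaps, which does not show that it is inaccessible. The closed window at 524 kb is rich in CpG, with 48 CpG dinucleotides and 80.3% G+C, whereas the open one had 8 and 54.0%. The other closed windows had 4, 6 and 6 CpG dinucleotides and 46.3 to 49.3% G+C, so the open window ranked between them and the closed one at 524 kb. On the 181 kb that follow the open start there were 12 members, the region over the start included, or 6.63 per 100 kb (95% exact Poisson interval 3.43 to 11.6), and on the 674 kb before it there were 9, or 1.34 per 100 kb (0.611 to 2.54).

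Pde4b, a phosphodiesterase that breaks down cyclic AMP, also had 1 accessible window among several. Of its 4 annotated starts only that at 483 kb was touched, by a region of 866 bp (chromosome 4, 102570020 to 102570885) that covered 90 of its 300 bases. Foxp1, a forkhead factor needed for the quiescence of naive T cells, had a region touching each of its 3 windows, 2 of them internal. In the outermost window the region covered 27 of the 300 bases and did not reach the start itself. The regions at the internal Foxp1 starts were 393 bp (chromosome 6, 99266130 to 99266522) and 275 bp wide (99028469 to 99028743). Both touched only an edge of the window, over 57 and 80 bases, and the second did not reach the start itself. Fhit, a gene of a common fragile site, had its own end open and a second open start 709 kb away, under a region of 1338 bp (chromosome 14, 10452696 to 10454033). The other such starts belonged to Nav2, Frmd4a, Mgat4c and Epha6, the last only 5.38 kb from its 5′ end; in Nav2 the window at the 5′ end was closed and the one 287 kb inside was open.

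The difference in density on either side of an open start that Celf2 showed did not hold in every gene. Densities per 100 kb were lower before the start than after it in Pde4b (2.28 and 11.045, the latter from 4 regions), Nav2 (1.75 and 4.68) and Frmd4a (1.85 and 5.63, the latter from 3 regions). In each of these genes, unlike in Celf2, the intervals before and after the start overlap. In Foxp1 the order was the other way at both starts, with 9.80 before and 7.35 after the one at 256 kb, and 9.12 and 4.90 at 494 kb, with intervals that overlap. Fhit had 1.98 and 2.44, and Mgat4c 3.15 and 3.45 at the first of its pair of open starts and 3.36 and 3.02 at the second. In Epha6 the stretch before the start was only 4.38 kb long and held 1 region, and the density after it was 1.14. The count on 1 side of each start includes the region that overlaps its window, and no difference between the sides was tested.

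Regions were denser inside immune-expressed long genes than inside neuronal ones. The 13 immune-expressed genes held 264 regions, with a median of 2.90 regions per 100 kb of gene body (order-statistic 95% interval 1.76 to 3.30), and the 110 neuronal genes held 1488, with a median of 1.41 (1.27 to 1.55). Over all 216 long genes the median was 1.50, with quartiles of 1.13 and 1.91. The ratio of the immune-expressed to the neuronal median was 2.05. With regions and lengths summed over each list, the densities were 3.22 and 1.46 per 100 kb, a ratio of 2.20 (exact conditional 95% interval 1.93 to 2.51). Of the immune-expressed genes 12 of 13 lay above the neuronal median and 3 above the densest neuronal gene. The lists still overlapped: 59 of the 110 neuronal genes were denser than Arhgap15, the sparsest immune-expressed gene. Foxp1 and Inpp4b held 95 of the 264 regions (36.0%), and without this pair the ratio was 1.80 for medians and 1.70 for summed regions.

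**Figure D1:**
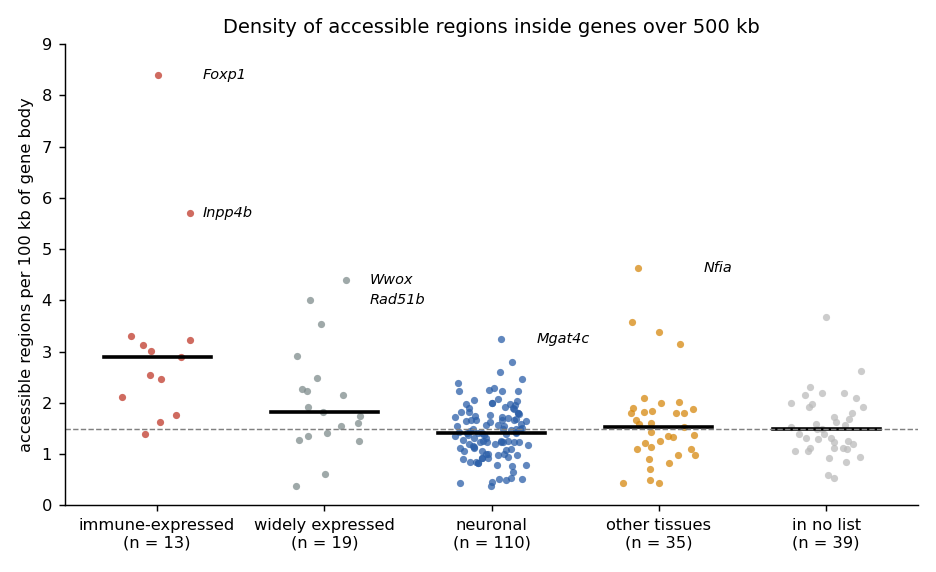
Each point is a gene over 500 kb, placed by list (horizontal) and by its accessible regions per 100 kb of gene body (vertical); black bars are list medians and the dashed line is the median of all 216 genes, 1.50. Foxp1 (8.40) and Inpp4b (5.70) lie above every other gene, and the neuronal genes end at 3.25.

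Widely expressed long genes fell between these groups. The 19 genes, which serve functions such as DNA repair and vesicle transport in most cells, had a median of 1.83 regions per 100 kb (1.35 to 2.49), and the 35 genes listed for other tissues had 1.54 (1.21 to 1.81). Across the 216 genes, which are not replicates, Spearman's rho with gene length was -0.06 for density and 0.58 for the number of regions. The genes with the most regions included long neuronal genes that ranked lower by density: Ptprd, a receptor tyrosine phosphatase gene of 2271 kb, had 45 regions and 1.98 per 100 kb (rank 49 of 216), and Lrp1b, a lipoprotein receptor family gene of 2058 kb, had 39 and 1.90 (rank 59). Both lay above the neuronal upper quartile of 1.76.

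Foxp1 (chromosome 6, 98925342 to 99522746, gene of 597 kb) was the densest of all long genes. It held 50 members, or 8.40 per 100 kb (95% exact Poisson interval 6.23 to 11.1), which is 5.60 times the median of long genes. They were spread over the gene: cut into 3 equal parts from the 5′ end, it held 17, 20 and 13. The median gap between them was 7.42 kb and the largest was 53.1 kb. The widest Foxp1 region, 1249 bp (chromosome 6, 99095360 to 99096608), lay 427 kb from the 5′ end. The 250 kb on either side of the gene held 2.87 regions per 100 kb away from gene ends.

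Inpp4b (chromosome 8, 81342266 to 82134312, 792 kb), a phosphoinositide phosphatase gene, came next with 45 members, or 5.70 per 100 kb (4.16 to 7.63). Its regions were unevenly placed, with 18, 24 and 3 in the 5′, middle and 3′ parts of equal length. The stretch from 81761617 to 81860862 held 15 of them, the most in any 100 kb of a long gene. Its flanks were sparse, at 1.01 per 100 kb. The last 158 kb of the gene, beyond the member at 634 kb from the 5′ end, held none.

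Elmo1, Syne1 and Rora followed with similar densities whose intervals overlap widely. Elmo1, a partner of Dock proteins in activating the GTPase Rac, had 17 regions or 3.30 per 100 kb (1.92 to 5.28), and 9 of them lay in the 5′ part of the gene when cut into 3. It also held the widest of all members, 1998 bp on chromosome 13 (20183989 to 20185986), 94.5 kb inside the gene. Syne1, which encodes a nuclear envelope protein that ties the nucleus to the cytoskeleton, had 17 regions or 3.22 per 100 kb (1.87 to 5.15). Rora, a nuclear receptor gene, had 23 or 3.14 per 100 kb (1.99 to 4.71). No region lay over the Rora start window in the table or within 1 kb of either of its ends, although its widest member measured 1382 bp (chromosome 9, 69289378 to 69290759).

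The next group was denser than the neuronal median by a smaller margin. Lpp, an adhesion plaque protein gene, had 18 regions or 3.01 per 100 kb (1.79 to 4.76). Pde4b had 15 or 2.90 per 100 kb (1.62 to 4.78), and 12 of these lay between 102493563 and 102588034 on chromosome 4, a stretch that contains its open internal start. Dock2, the Rac activator that lymphocytes need for migration, had 14 or 2.54 per 100 kb (1.39 to 4.26), with regions of 1698 bp (chromosome 11, 34681654 to 34683351) and 1548 bp (34770347 to 34771894), 101 and 12.8 kb from its 5′ end. Celf2 had 21 or 2.46 per 100 kb (1.52 to 3.76). Zbtb20, a zinc finger transcription factor gene, had 16 or 2.12 per 100 kb (1.21 to 3.44), and its annotated start window 372 kb inside the gene was closed.

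The sparsest immune-expressed genes, like all but 3 of the 13, were within the range of the neuronal genes. In Rabgap1l and Arhgap15 the regions were gathered at 1 side. All 10 regions of Rabgap1l, a GTPase-activating protein gene (1.76 per 100 kb, 0.844 to 3.24), lay in the 3′ part of the gene when cut into 3, and its open start lies at the other end. Lrba, whose product is needed to recycle the inhibitory receptor Ctla4, had 9 regions or 1.63 per 100 kb (0.744 to 3.09). Arhgap15, a negative regulator of Rac, had 9 or 1.40 per 100 kb (0.638 to 2.65). In Arhgap15 6 of the 9 lay near the 5′ end (chromosome 2, 43751005 to 43794931), and its largest stretch without a region was 259 kb.

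**Figure D2:**
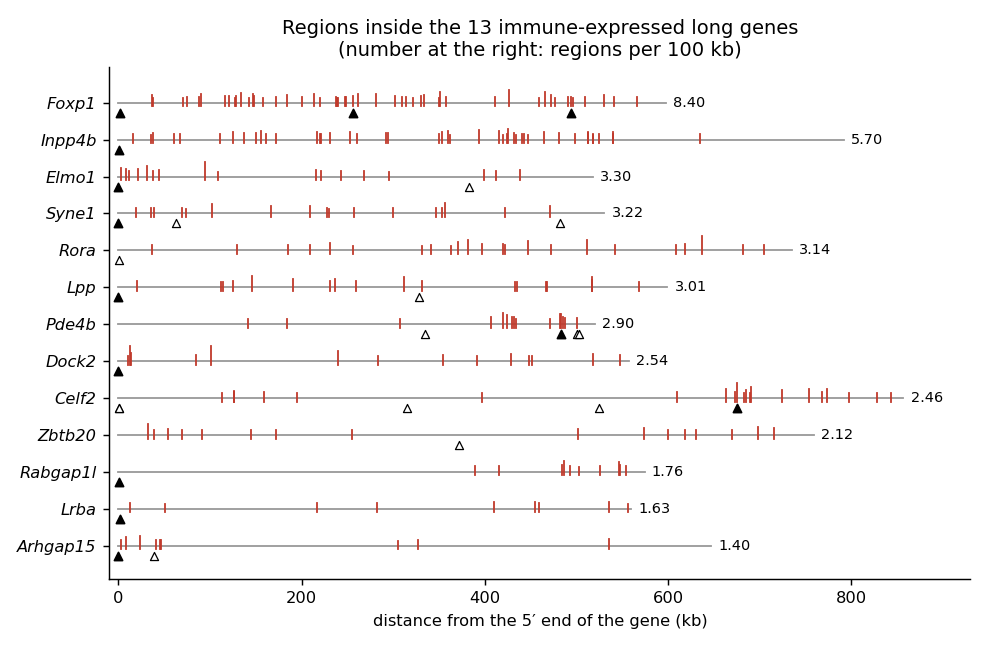
The 13 immune-expressed long genes are drawn from their 5′ end (left, distance in kb), densest at the top; each red tick is a member region, taller for wider regions, and triangles are annotated starts, filled where a region overlaps the window. Celf2 and Pde4b carry most ticks around a filled triangle near the 3′ end, while Foxp1 is covered along its length.

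Closely spaced regions were more frequent in immune-expressed genes, which were also denser. A higher density by itself shortens gaps and adds neighbours, and the values below were not adjusted for it. In 7 of these 13 genes some 100 kb held 8 or more regions, against 1 of 110 neuronal genes, 3 of 19 widely expressed genes and 15 of all 216. A neighbour less than 5 kb away existed for 42.8% of the members in immune-expressed genes and for 12.2% of those in neuronal genes. Over all long genes the share was 19.2%. The immune-expressed genes differed in this: 28 of 45 members had one in Inpp4b, 29 of 50 in Foxp1 and 0 of 16 in Zbtb20. The median gap between members of a gene was 14.3 kb in immune-expressed genes, 41.2 kb in neuronal genes and 35.5 kb over all long genes. On the 5′ side of the gene's midpoint lay 47.7% of the members of immune-expressed genes and 48.8% of those of neuronal genes with known strand.

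Regions in immune-expressed long genes were also wider. The rule for members did not use width, but width and number of regions come from the same region calls. The lists were chosen with earlier results of these data known. The median width was 295.5 bp (quartiles 210 and 496 bp) in immune-expressed genes, 246 bp in widely expressed genes, 225 bp in the genes of other tissues and 220 bp (178 and 283 bp) in neuronal genes, against 292 bp over all regions of these chromosomes. Regions of 300 bp or more made up 49.6% of the 264 members in immune-expressed genes (95% exact binomial interval 43.4 to 55.8%) and 21.0% of the 1488 in neuronal genes (18.99 to 23.20%). Over all members the share was 26.8%. Counting only these wider regions, the medians were 1.29 and 0.272 per 100 kb, and their ratio was 4.72 in place of 2.05. Regions of 500 bp or more numbered 66 in the 13 immune-expressed genes and 43 in the 110 neuronal ones, of which 75 had none. Elmo1 and Pde4b had high median widths, 381 and 432 bp, whereas Rora, Zbtb20 and Syne1 had medians of 221, 216 and 230 bp, close to the neuronal value.

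**Figure D3:**
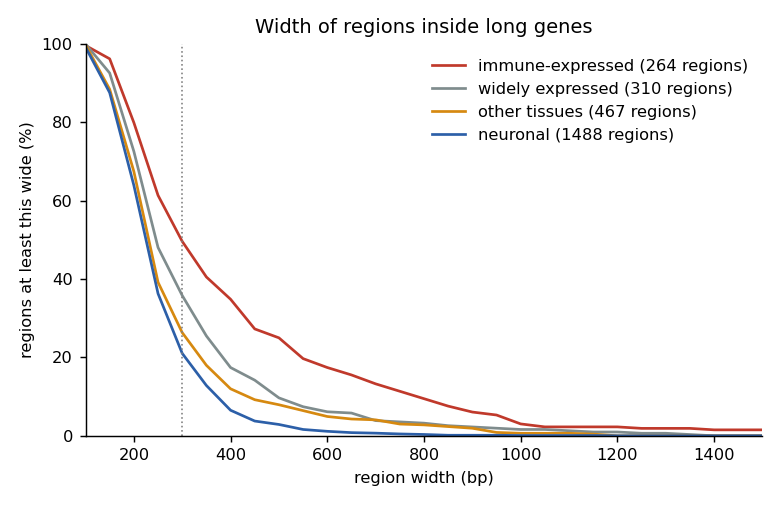
The percentage of member regions (vertical) that are at least as wide as the value on the horizontal axis (bp), for 4 gene lists; the dotted line marks 300 bp. At that width the immune-expressed line stands at 49.6% and the neuronal line at 21.0%.

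Neuronal long genes held a median of 12 regions per gene, against 11 over all long genes, and were low in regions per 100 kb, with a range from 0.380 to 3.25 (mean 1.44 ± 0.528, SD over 110 genes). The densest was Mgat4c, a glycosyltransferase family gene, with 23 regions or 3.25 per 100 kb (2.06 to 4.87). Only 4 of the 23 reached 300 bp, and the median was 207 bp. Cadm2, a synaptic adhesion gene (2.80), Grm7, a metabotropic glutamate receptor gene (2.61), Ctnnd2, a catenin of neuronal junctions (2.46), and Cdh18, a cadherin gene (2.38), came next. Of the 22 Cdh18 regions 1 reached 300 bp. At the other end were Unc13c, a presynaptic release factor gene, with 2 regions or 0.380 per 100 kb (0.0460 to 1.37), Nckap5 with 4 (0.437), the glutamate receptor gene Grm8 with 4 (0.466), the transcription factor gene Npas3 with 4 (0.487) and Ank2, an ankyrin gene, with 3 (0.520). Grm8 is an exception among them in having an open start, and Nckap5 had a stretch of 633 kb with no member.

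Among the widely expressed genes the densest were Wwox and Rad51b. Wwox, another fragile-site gene, had 40 regions or 4.39 per 100 kb (3.14 to 5.98), 20 of them at least 300 bp wide, and 14 between 114801550 and 114888669 on chromosome 8. Rad51b, a gene of homologous recombination, had 22 or 4.01 per 100 kb (2.51 to 6.07). Smyd3, a methyltransferase gene, had 3.55, Exoc4 of the exocyst 2.90 and the mitochondrial peptidase gene Immp2l 2.49. From the list of other tissues, the transcription factor gene Nfia (4.64), the endosomal exchanger gene Slc9a9 (3.58) and Nav2 (3.39) were among the 10 densest long genes, as was Arhgap26 (3.67), which is in no list. The receptor phosphatase genes Ptprm and Ptprg (0.438 and 0.437, with 3 regions each) were among the 5 sparsest.

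Regions at the ends of long genes were counted next. Of all long genes 55 of 216 (25.5%) had a region within 1 kb of either end: 11 of 13 immune-expressed, 13 of 19 widely expressed and 16 of 110 neuronal genes. The 13 widely expressed genes with such a region had a median of 2.24 members per 100 kb and the 6 without it 1.50. For neuronal genes the medians were 1.54 and 1.41. The 2 immune-expressed genes without one, Rora and Celf2, had 3.14 and 2.46. The difference between lists in this respect was not tested.

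Density inside a long gene was weakly related to density around it. Over all 216 genes, density inside and density in the 250 kb on either side had a Spearman's rho of 0.13 (a description across genes). Of the immune-expressed genes 6 of 13 were denser than their flanks, among them Foxp1, Inpp4b and Rora, whose flanks held 0.816 per 100 kb. Of the neuronal genes 42 of 110 were, and of all long genes 83 of 216. Both lists were near the share over all long genes. The flanks of immune-expressed genes had a median of 2.29 per 100 kb and those of neuronal genes 1.67. Rabgap1l, Dock2, Lpp, Celf2, Zbtb20, Lrba and Arhgap15 were sparser than their flanks, which contain other genes.

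As a class, long genes held fewer regions for their length than shorter genes. The summed density away from gene ends was 1.63 per 100 kb (95% exact Poisson interval 1.57 to 1.68) in genes over 500 kb, 2.26 (2.20 to 2.33) in genes of 200 to 500 kb, and between 2.84 and 3.11 in the shorter classes. Outside protein-coding genes it was 1.98 (1.956 to 2.003). Members were also narrower than regions of shorter genes, with a median of 229 bp against 260 bp in genes of 200 to 500 kb and 290 bp or more below that. The immune-expressed long genes alone stood at 3.22, which is 1.63 times the density outside genes.

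**Figure D4:**
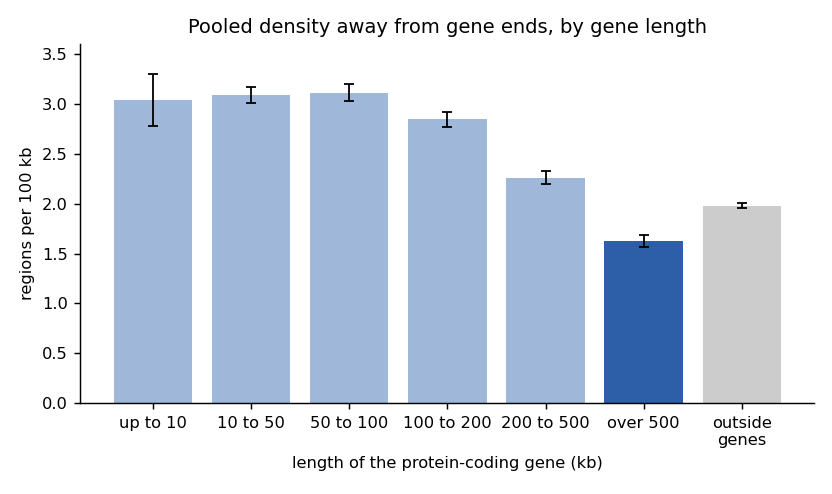
Bars give accessible regions per 100 kb, away from gene ends, for protein-coding genes grouped by length in kb and for sequence outside genes, with 95% exact Poisson intervals. The value falls from 3.11 at 50 to 100 kb to 1.63 over 500 kb.

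Near the limits of the rule, the shortest genes included were Edil3 (502 kb, 1.20 regions per 100 kb), Dock1 (503 kb, 0.604) and Samd12 (503 kb, 1.79). The longest ones left out were Dnm3 (496 kb, 2.23), Lrrc7 (495 kb, 0.812) and Cacna1e (494 kb, 1.22). The members nearest to a gene end lay 1037, 1212 and 1240 bp from it, and the nearest regions left out 955, 888 and 819 bp. The first of those left out touches the outermost Foxp1 start window.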

How the data were processed

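The deposited data are 1 list of accessible regions for 2 WT and 2 DDX55 KO libraries, with a chromosome, a start and an end in 3 columns and no score or count. MACS3 3.0.0b1, SAMtools 1.15.1, Bowtie2 2.5.08, fastp 0.12.4 and mm10 are listed per the submitters' processing notes, with no role, threshold or rule for joining peaks. How the regions depend on those thresholds was not tested.

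Positions were made 1-based and compared with RefSeq genes of GRCm38.p6. Density is the number of members per 100 kb of gene body less the 1 kb windows at protein-coding gene ends. Of the genes listed, 13 of 50 immune-expressed, 19 of 49 widely expressed, 110 of 195 neuronal and 35 of 64 for other tissues exceeded 500 kb; these lists came from general knowledge of expression, and the members and lists were chosen with earlier results of these data known. The table gives no exons. Genes named are all immune-expressed long genes, the 10 densest, the 5 sparsest and the 5 with most regions, the 5 densest and 5 sparsest neuronal and the 5 densest widely expressed genes, 3 on each side of the length limit and the genes of the 5 widest regions. Fhit, Frmd4a, Epha6 and, in the closing section, Pde4d and the overlapping genes were chosen after their values were seen. Descriptions of start windows, flanks and microRNAs were added after the data and the tables were seen; strand comes from the start table (169 genes). 1 gene that the rule selects is not reported here. Counting was tested on simulated regions, without chromosome 18 and without long genes that overlap another. The simulated regions were placed with the same end windows as the count, so the test checks the counting code only. Python 3.11.15, pandas 2.3.3 and scipy 1.17.1 were used. The closing section gives the alternatives.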

Additional observations from a re-analysis of the deposited data

How the results depend on the processing

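Across the 13 alternatives of each ratio, the ratio of immune-expressed to neuronal density stayed above 1: that of medians ran from 1.74 to 4.72 and that of summed densities from 1.70 to 5.20. Other end distances, merged regions, region middles, unshared stretches and whole gene bodies moved no value beyond its interval. Counting only regions of at least 300 bp moved every value: 785 members, a density of 0.434 in all long genes, medians of 1.29 (immune-expressed) and 0.272 (neuronal), ratios of 4.72 and 5.20, 0.472 times the density of genes of 200 to 500 kb and 0.589 times that outside genes, widths of 500 and 363 bp and a gap of 58.5 kb. With bodies over 400 kb the density was 1.70, its ratio to that outside genes 0.857 and the gap 31.8 kb; over 750 kb there were 1820 members, 3 of the genes were immune-expressed and the gap was 38.7 kb. Including chromosome X the density was 1.54. Another alternative left out Syne1, Lpp, Rabgap1l, Celf2 and Zbtb20, taken from general knowledge as broadly expressed. The 8 genes left are not shown to be restricted to lymphocytes. With those 8 genes the ratio of medians was 2.13 and the summed ratio was 2.54. The interval of that ratio of medians, 0.986 to 5.94, was the only one that includes 1. Intervals of the ratio of medians hold the neuronal median fixed. The summed ratio was 1.70 without Foxp1 and Inpp4b, an alternative added after seeing the data. No paired analysis was possible because the list has no value per library. Depth is unknown, so a stretch without a region is not shown to be closed.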

Other observations

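Of the 2926 members, 53 (1.81%) lay within 1 kb of an end of a noncoding gene, 31 of them a long noncoding RNA gene and 2 a microRNA gene. No share over all regions stands beside this count, so it cannot be called low or high. Overlap with the bodies of other genes is not part of it. In Pde4d, which encodes a cyclic AMP phosphodiesterase and is in no list, a region of 1376 bp (chromosome 13, 109902548 to 109903923) contains Mir1904. In Lpp, a region of 252 bp (chromosome 16, 24828488 to 24828739) lies 559 bp past miR-28a-3p, which is encoded within the gene together with miR-28a-5p. The mature sequences from RefSeq (GRCm38.p6), with the seed in capitals (bases 2 to 8), share no seed.
mmu-miR-1904: gUUCUGCUccucuggagggagg
mmu-miR-28a-5p: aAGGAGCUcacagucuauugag
mmu-miR-28a-3p: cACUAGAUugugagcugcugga

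Pde4d had 34 regions over 1302 kb, or 2.62 per 100 kb (95% exact Poisson interval 1.81 to 3.66), 19 of them at least 300 bp wide. Below the length limit, members of the same lists that are 200 to 500 kb long had medians of 3.98 regions per 100 kb for 21 immune-expressed genes and 1.49 for 68 neuronal genes. The neuronal value differs little from that of the long neuronal genes, 1.41, and the immune-expressed value is above the 2.90 of the long genes. At 100 to 200 kb the medians were 10.9 for 11 immune-expressed genes and 1.59 for 8 neuronal genes. Among these length classes the lists differed least in the long genes.

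Gm37013, Gm38666 and Gm38667, whose RefSeq synonyms name protocadherins (adhesion proteins of neurons), overlap one another on chromosome 18. Together with Schip1 and Iqschfp, which also overlap, they are why 14 members lie in more than 1 long gene. Each was counted once in the total of 2926. In the densities these members and the shared sequence count for every gene that holds them. The summed density of 1.63 per 100 kb thus rests on 2948 counts. Without stretches shared with another gene it was also 1.63.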
